A study of Mus musculus with 24 samples.

Results

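The genes described here encode the presynaptic vesicle release machinery: 36 genes for synaptic vesicle proteins, SNAREs, calcium sensors, active zone scaffolds, Rab3 proteins and endocytic proteins. They were taken by name from a table of 15232 genes, with the condition that their mean level over all 24 libraries was at least 1 FPKM (fragments per kilobase of transcript scaled to the mapped fragments of a library, a length-adjusted measure of RNA abundance). All 36 met it. The gene nearest to the limit was Sv2c at 4.38 FPKM, and no listed gene fell outside.

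A nerve terminal stores transmitter in synaptic vesicles, which are tethered at the active zone, primed, and fused with the plasma membrane when calcium enters. Fusion is driven by the zippering of SNARE proteins, timed by synaptotagmins and complexins, and followed by disassembly of the SNARE complex and retrieval of the vesicle membrane by endocytosis. Thrombospondins, named in the study's title, are secreted by astrocytes and act on synapse formation.

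The study measured poly(A) RNA from the whole anterior cingulate cortex of mice, a medial prefrontal region studied for effort-based action. Sequencing covered 3 arms of 8 animals, each with 4 males and 4 females: untrained mice labelled WT, untrained mice labelled Thbs1/2 KO, and trained mice labelled Thbs1/2 KO. Training took place in an operant (Skinner) box, and the animals were food deprived from its start, so the effects of training and of food deprivation cannot be told apart. The labels give the genotype as loss of both Thbs1 and Thbs2, and the untrained arms as having no treatment. Strain, age and the cells in which the genes were deleted are not given in the sources used here, and no trained arm labelled WT was analysed here.

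Read totals recovered from the FPKM values were 12898226 to 19991770 in the untrained arm labelled WT, 12343773 to 27233267 in the untrained arm labelled KO and 16796512 to 20414047 in the trained arm. The targeted genes went against the labels. Thbs1 was at 0.512 ± 0.147 FPKM (SD, n = 8) in the arm labelled WT, 3.68 ± 0.840 in the untrained arm labelled KO and 4.63 ± 0.690 in the trained arm. Thbs2 was at 2.02 ± 0.294, 3.51 ± 0.378 and 3.29 ± 0.227 FPKM in the same order. All groups are therefore named by their labels only, and the direction of every genotype comparison rests on labels that the targeted genes do not follow. Markers of cortical excitatory neurons, 7 genes including Slc17a7 and Tbr1, summed to between 590.1 and 786 FPKM in 23 libraries. A single library stood apart: male untrained library 3 labelled KO, with a sum of 235 FPKM, and with 8 striatal markers at 367 FPKM against 61.4 to 256 in the others and 6 septal markers at 93.3 against 6.92 to 11.1. Results are given with and without it where it moved them.

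Most release genes were abundant. Their median level was 98.0 FPKM, against 10.5 FPKM for the 12572 genes tested. FPKM is adjusted for length, so levels are set side by side between genes here as a rough order. That order depends on the length assigned to each gene in the deposited values, which was not checked. It also leaves base composition uncorrected. Among the vesicle membrane genes, synaptophysin (Syp, the major tetraspan vesicle protein) was highest at 545 ± 44.1 FPKM (SD, n = 24). The synapsins, which cluster vesicles, were at 192 FPKM for Syn1, 101 for Syn2 and 5.59 for Syn3. The synaptogyrins, tetraspan relatives of synaptophysin, were at 186 FPKM for Syngr1 and 80.2 for Syngr3. The SV2 glycoproteins were at 160 FPKM for Sv2a, 135 for Sv2b and 4.38 for Sv2c, so that Sv2c was the lowest of all 36.

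Snap25, a plasma membrane SNARE, was the highest at 1807 ± 249 FPKM and ranked 1 among all genes of the table. Its vesicle partner Vamp2 was at 599 FPKM and the related Vamp1, the lowest of the SNARE group, at 59.9. Syntaxin 1A (Stx1a), the other plasma membrane SNARE, was at 165 FPKM. The ATPase Nsf and the adaptor Napb, which together take spent SNARE complexes apart, were at 311 and 195 FPKM. Among the synaptotagmins, Syt1, the fast sensor of forebrain synapses, led at 486 FPKM. Syt2, the fast sensor of many inhibitory and hindbrain terminals, was lowest at 12.3. The other synaptotagmins lay between: Syt11 at 224 FPKM, Syt5 at 95.1, Syt4 at 74.8 and Syt7, a slower sensor, at 60.0. Complexins, which clamp and then assist the SNARE complex, were at 404 FPKM for Cplx1 and 294 for Cplx2.

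Active zone genes were lower. Unc13a (Munc13-1, which primes vesicles) was highest at 49.9 FPKM and Unc13b (Munc13-2) lowest at 9.08. The Rab3-binding scaffolds Rims1 and Rims2 were at 48.3 and 20.4 FPKM, the large scaffolds Bsn (bassoon) and Pclo (piccolo) at 44.6 and 23.2, and Erc2 (an ELKS family scaffold) at 29.6. The vesicle GTPase Rab3a was at 379 FPKM, its relative Rab3c at 59.0 and their effector rabphilin (Rph3a) at 160.5. Of the endocytic genes, dynamin 1 (Dnm1, which cuts vesicles from the membrane) was highest at 375 FPKM, amphiphysin (Amph, which recruits dynamin) was at 84.0 and synaptojanin 1 (Synj1, a lipid phosphatase that helps to remove the clathrin coat) was lowest at 80.2.

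**Figure D1:**
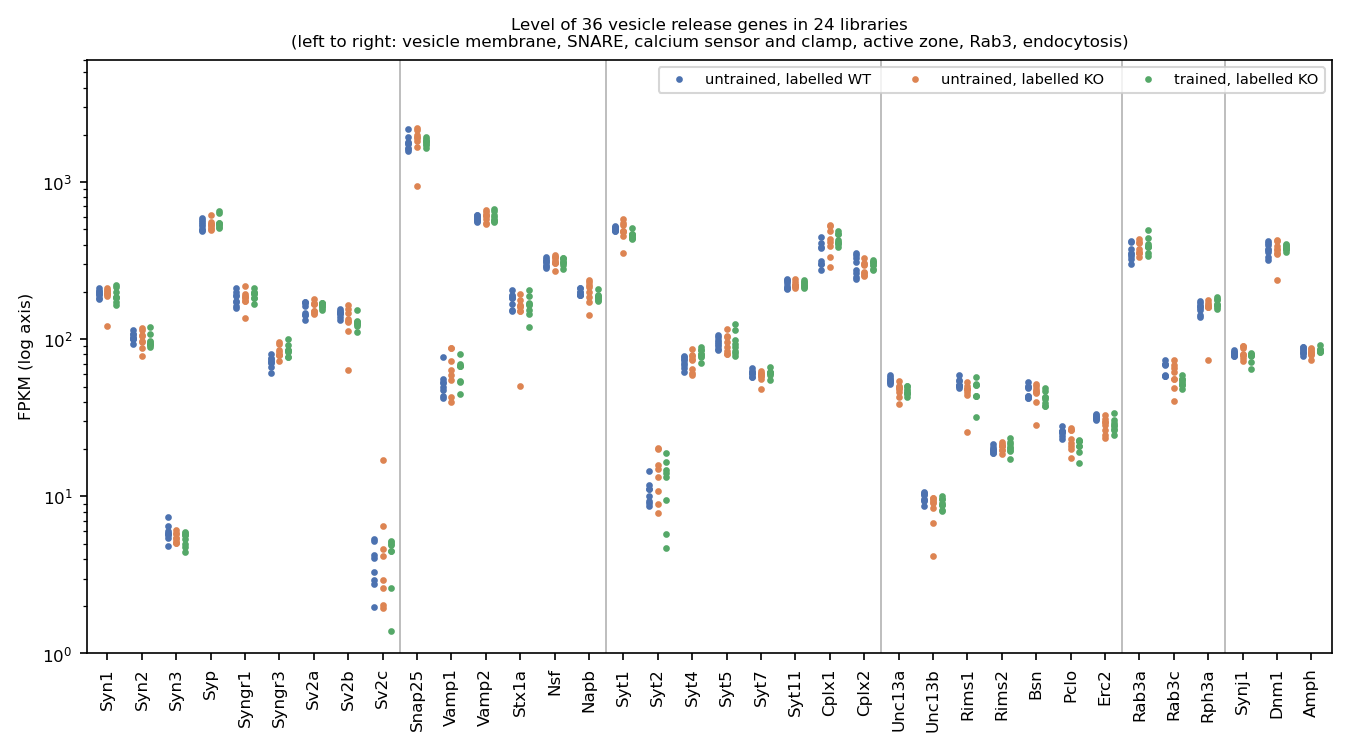
Level in FPKM, on a log axis, of each of the 36 genes in each of the 24 libraries, one point per library, coloured by arm and ordered by role. Snap25 is highest at a mean of 1807 FPKM and Sv2c lowest at 4.38, and the points of the 3 arms overlap for nearly every gene.

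Levels varied little between animals. The median coefficient of variation over 24 libraries was 10.8%, against 12.0% for all genes tested. Syt11 (4.61%) and Amph (4.65%) varied least. Sv2c (69.1%), Syt2 (33.9%), Vamp1 (23.98%), Stx1a (19.3%) and Cplx1 (18.0%) varied most.

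Sv2c was at 17.1 FPKM in male untrained library 3 labelled KO and at 1.96 to 6.48 in the other 7 libraries of that arm. That library carried the highest striatal and septal sums given above. Stx1a was at 50.2 FPKM in the same library and at 151 to 194 in the other 7, so both extremes come from 1 animal. The part of the striatal and septal RNA in either value was not tested.

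Syt2, Vamp1 and Cplx1 were high or low together in several animals. In female untrained library 4 labelled KO they lay 0.73, 0.58 and 0.30 above their means over 24 libraries on the log2(FPKM + 1) scale, and in male untrained library 2 labelled KO 0.75, 0.59 and 0.43 above. In female library 3 labelled WT they lay at -0.38, -0.41 and -0.52. Other libraries did not follow this. Trained male library 3 had Syt2 at -1.15 and Cplx1 at 0.10, and trained male library 2 had them at -0.90 and -0.03. In trained male library 1, Syt2, Vamp1 and Cplx1 lay at -0.26, -0.09 and 0.04. The 6 inhibitory neuron markers (Gad1, Gad2, Pvalb, Sst, Vip and Lhx6) summed to 620 and 623 FPKM in the libraries where the genes were high and to 444 in the female library labelled WT. Sst weighed most in that sum, with a mean of 280 FPKM over 24 libraries, and Gad1 next at 143. The sum did not go with the 3 genes everywhere: it was highest, at 719 FPKM, in male untrained library 3 labelled KO, where Syt2, Vamp1 and Cplx1 lay at -0.52, -0.54 and -0.46, and next highest, at 681, in trained male library 3. The ranges of that sum over arms were 441 to 627 FPKM in the untrained arm labelled WT, 513 to 719 in the untrained arm labelled KO and 523 to 681 in the trained arm, and none of the 6 was at 0 in any library. These 3 genes and libraries were chosen after their values were seen, and the part of inhibitory neurons in them was not tested. In bulk tissue, fewer cells of a type and less RNA per cell cannot be told apart.

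**Figure D2:**
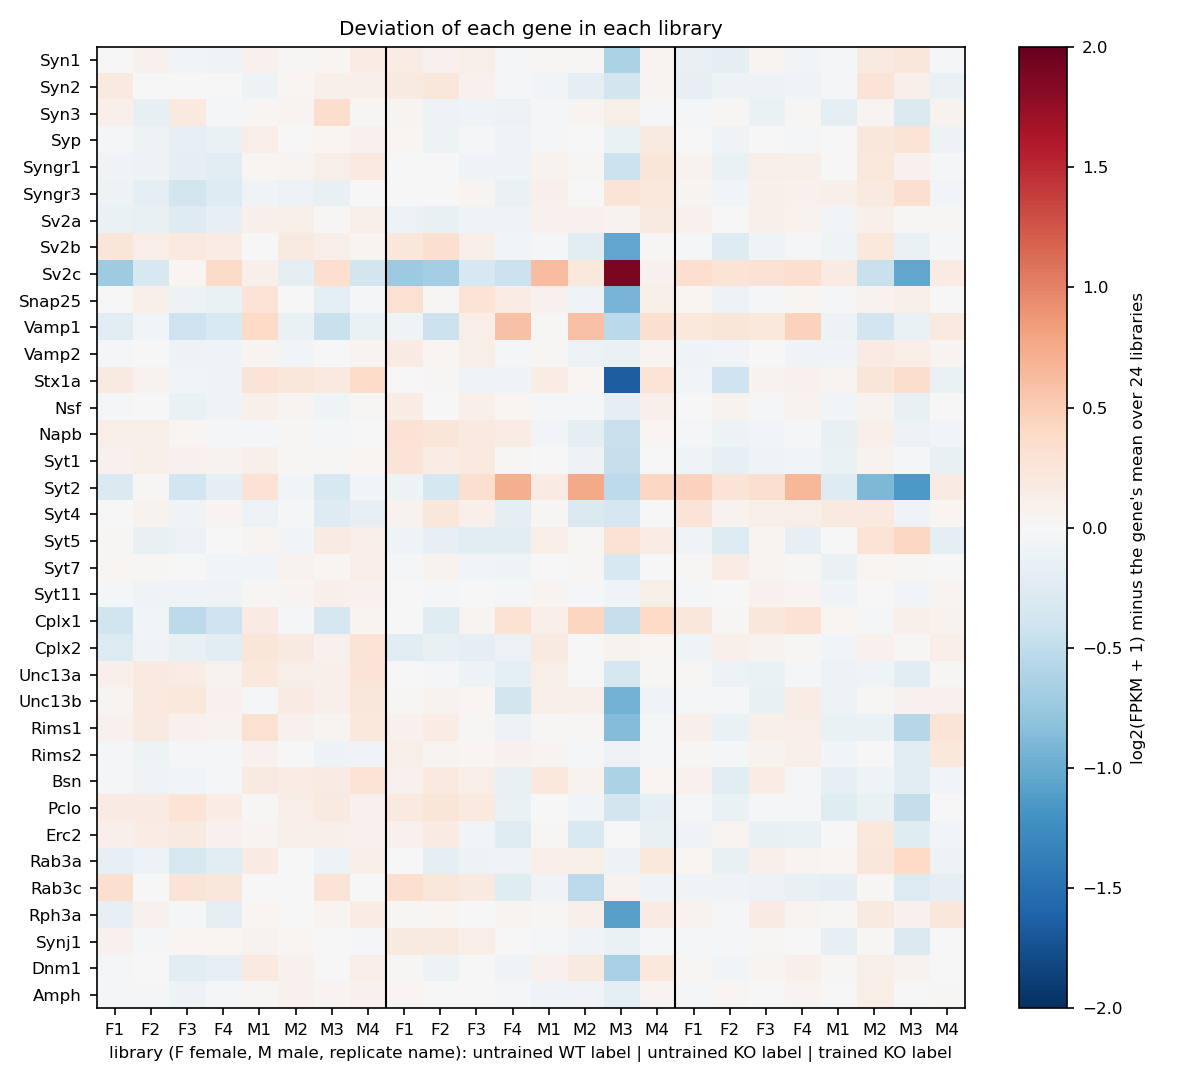
Deviation of each gene from its mean over 24 libraries, in log2(FPKM + 1), by library; red is above the mean and blue below. The column of male untrained library 3 labelled KO is mostly blue, with a median deviation of -0.34 and Sv2c at 1.89, while Syt2, Vamp1 and Cplx1 share their colours in many libraries.

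Male untrained library 3 labelled KO was the lowest of 24 in 20 of the 36 genes and the highest in 1, Sv2c. The lowest values in it included Snap25 at 941 FPKM (1680 to 2219 in the other 7 of its arm), Rph3a at 73.9 (160 to 178) and Rims1 at 25.8 (43.9 to 53.1). General neuron markers in it summed to 1037 FPKM, within the range of 979 to 1260 of the other libraries, and oligodendrocyte markers to 684 against 973 to 1700. Trained male library 3 labelled KO held the lowest value in 6 genes and the highest in 5.

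The first comparison asked whether loss of the thrombospondins, as labelled, went with other levels of release genes in untrained animals. Of the 36 genes, 1 changed (2.78%), where 1.42% of all 12572 genes tested did (0.605% higher and 0.819% lower), so the share is near the background. The gene was Syngr3, and it was higher in the libraries labelled KO. Syngr3 (chr17:24685092-24689949, mm10) ranged from 61.4 FPKM through a median of 72.3 to 80.5 in the arm labelled WT, and from 72.5 through 81.4 to 95.7 in the untrained arm labelled KO. The ranges overlapped, and all 8 libraries labelled KO lay above the WT mean. The means were 71.8 ± 5.86 and 83.5 ± 7.66 FPKM (SD, n = 8 each), a difference of 0.21 in log2(FPKM + 1) with a standard error of 0.048 and an adjusted p of 0.0329 by limma, Benjamini-Hochberg adjusted over all genes tested. Syngr3 lies on the chromosome of Thbs2, 9.99 Mb from it. Snap25, Napb and Dnm1 lie on the chromosome of Thbs1, 18.6, 30.6 and 85.8 Mb from it. Their differences were -0.001, 0.0009 and -0.04, none called.

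The call of Syngr3 is close to the threshold. It was lost when any of 9 of the 16 libraries was left out, namely male libraries 1, 2 and 3 and female libraries 3 and 4 labelled WT, and female libraries 1, 2 and 3 and male library 4 labelled KO, with values of 0.19 to 0.22 and adjusted p of 0.059 to 0.0785 by limma. Without male library 3 labelled KO the difference was 0.20 and stayed called.

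The active zone genes leaned the other way without passing the test. With all libraries, 6 of 7 had lower means in the libraries labelled KO. The median difference of the group was -0.17, beside -0.03 for all 36 genes and -0.001 for all genes tested. Unc13a ranged from 51.9 FPKM through 54.6 to 59.3 in the arm labelled WT and from 38.6 through 48.9 to 54.0 in the untrained arm labelled KO, and no library labelled KO reached the WT mean. Its difference was -0.22 (SE 0.056, limma adjusted p = 0.0733). Erc2 differed by -0.17 (adjusted p = 0.195) and Pclo by -0.16 (adjusted p = 0.278).

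The outlying male library bore on this group. Without it, 3 of 36 genes changed, where 2.70% of all genes did: Syngr3 and Cplx1 were higher, by 0.20 and 0.37, and Unc13a was lower by a difference of -0.17 (limma adjusted p = 0.0216). The median over the 36 genes moved from -0.03 to 0.02. Rims1 moved from -0.22 to -0.11 and Unc13b from -0.25 to -0.13, neither called. The mean of Bsn in the untrained arm labelled KO moved from 44.7 to 47.1 FPKM. It then lay above the 46.8 FPKM of the arm labelled WT, so Bsn was no longer lower. The median of the 7 active zone genes without the library is not given here. Cplx1 had differed by 0.27 with an adjusted p of 0.373 with the library included.

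Apart from Syngr3, no gene of the other roles passed the test. Stx1a differed by -0.31 with all libraries (95% interval -0.75 to 0.12) and by -0.09 without the male library. Syt2 differed by 0.30 (-0.06 to 0.65) and Vamp1 by 0.24 (-0.10 to 0.58). For the most abundant genes the intervals were narrower: 0.04 (-0.06 to 0.14) for Vamp2 and 0.003 (-0.10 to 0.10) for Syp. Over all 36 genes, 5 had an unadjusted p under 0.05 (Syngr3, Unc13a, Erc2, Pclo and Cplx1), beside 12.7% of all genes.

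**Figure D3:**
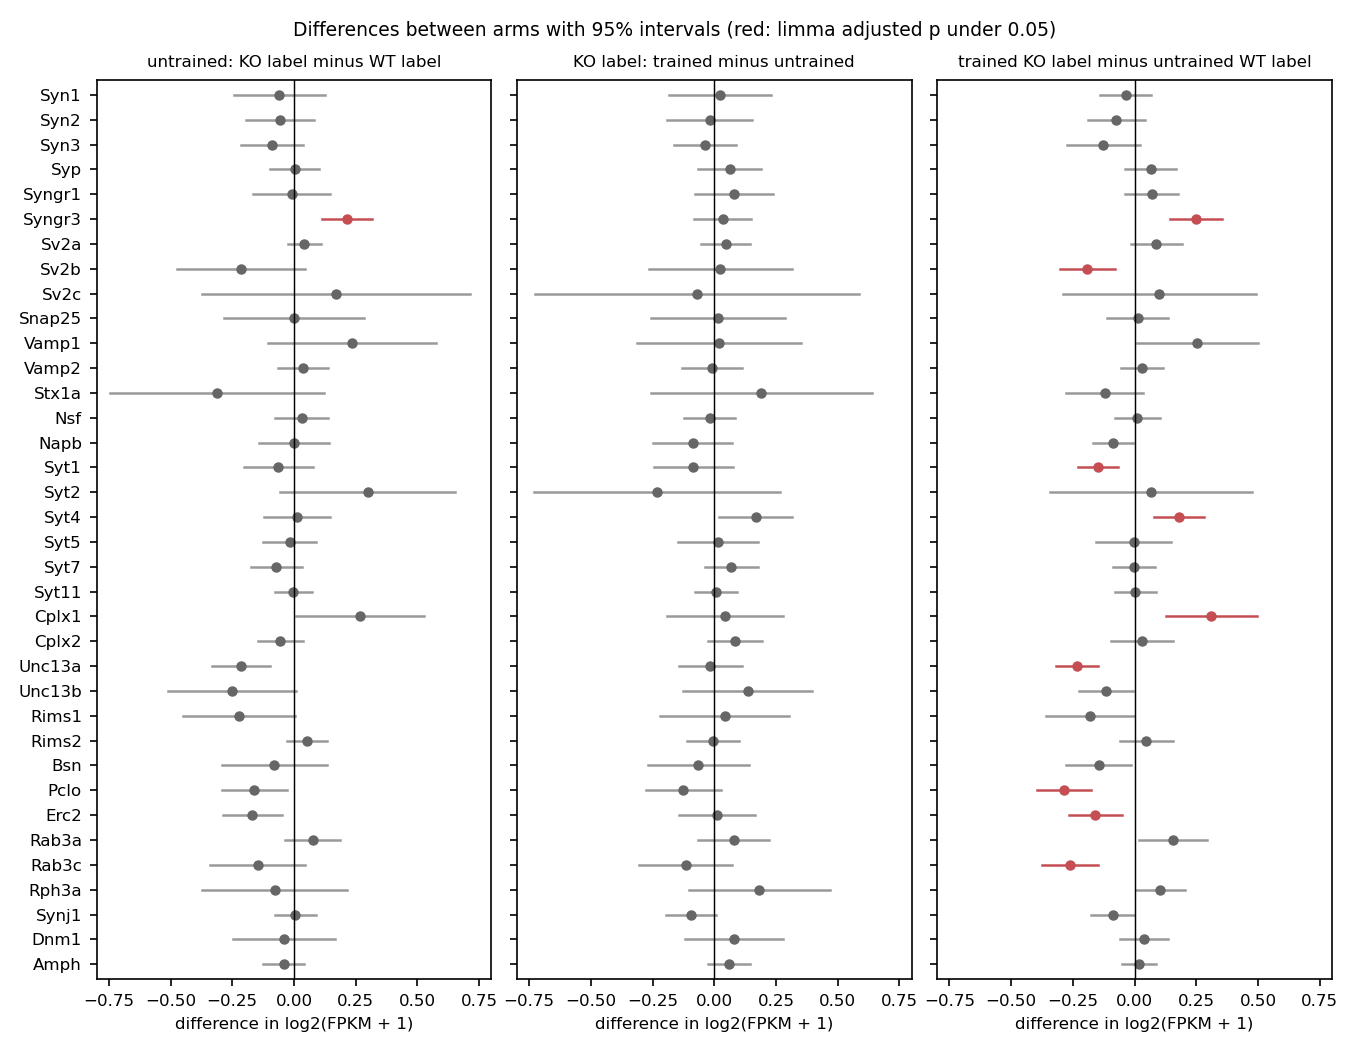
Difference in log2(FPKM + 1) with its 95% interval for each gene, in the 3 comparisons of arms; red marks a limma adjusted p under 0.05. The panels show 1, 0 and 9 genes in red from left to right, and the arms are shared between panels.

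The second comparison set trained against untrained mice, both labelled KO. Among the release genes 0 of 36 passed the limma test, where 5.67% of all genes did (3.5% higher and 2.17% lower). At an unadjusted p under 0.05 there was 1 gene, Syt4, beside 23.8% of all genes, and limma-voom on the recovered reads also called 0 of 36. The median difference over the 36 genes was 0.02, beside 0.01 for all genes tested.

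Syt4, a synaptotagmin found on dense-core vesicles and induced by neuronal activity, ranged from 58.9 FPKM through 74.5 to 86.8 in untrained and from 70.6 through 80.6 to 88.6 in trained animals. The ranges overlapped, and 7 of 8 trained libraries lay above the untrained mean. Its difference was 0.17 (SE 0.070, limma adjusted p = 0.155). Synj1 ranged from 72.7 through 79.7 to 91.1 in untrained and from 64.9 through 79.1 to 81.3 FPKM in trained animals, and its difference was -0.09 (SE 0.048, adjusted p = 0.240 by limma). Pclo ranged from 17.7 through 22.6 to 27.4 in untrained and from 16.3 through 21.6 to 22.7 FPKM in trained animals. All 8 trained libraries lay below the untrained mean of Pclo, and the difference was -0.12 (SE 0.072, adjusted p = 0.310 by limma).

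Amph and Rph3a had differences of 0.06 and 0.18 that did not pass the test. Both were lowest in the outlying library, at 73.7 and 73.9 FPKM, and without it the differences were 0.04 and 0.03. Leaving that library out gave no call among the 36 genes either.

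Of 83 other genes of the vesicle cycle, 4 changed (4.82%), a share near the 5.67% of all genes. Hspa8 (Hsc70, the chaperone that strips clathrin from vesicles) rose from 741 ± 31.0 to 893 ± 27.8 FPKM (SD, n = 8 each), a difference of 0.27 with no overlap between the arms, as for 0.962% of all genes (limma adjusted p = 0.00255). Rab3ip (rabin3, an exchange factor for Rab proteins) rose from 11.9 ± 0.978 to 14.5 ± 0.584 FPKM, a difference of 0.27, again with no overlap (adjusted p = 0.00396 by limma). Sh3gl1 (endophilin A2) rose by 0.23, and Dnm3 (dynamin 3) fell from 34.6 ± 4.08 to 28.6 ± 1.97 FPKM, a difference of -0.26. With the number in the sample name as a covariate (above or below 1000), neither these nor any other of the 12572 genes passed the test: all 8 trained libraries have a number above 1000, as do 2 of the 8 untrained libraries labelled KO.

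The third comparison set trained mice labelled KO against untrained mice labelled WT. It differs in genotype label, training and food deprivation together, which cannot be told apart, and it shares its libraries with the comparisons above. Of the 36 genes, 9 changed (25.0%), and 24.5% of all genes did (12.9% higher and 11.5% lower), so the share is near the background. In the trained mice 6 were lower: the active zone genes Unc13a, Pclo and Erc2, the vesicle GTPase gene Rab3c, the calcium sensor gene Syt1 and the vesicle glycoprotein gene Sv2b. The other 3 were higher: Syngr3, Syt4 and Cplx1.

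Unc13a and Pclo were the only genes of the 36 whose 2 arms did not overlap, 2 of 36 beside 3.11% of all genes, a share near the background. Unc13a ranged from 51.9 through 54.6 to 59.3 FPKM in the arm labelled WT and from 43.0 through 46.2 to 50.7 in the trained arm. Its mean fell from 55.2 ± 2.48 to 46.9 ± 2.72 FPKM (SD, n = 8 each), a difference of -0.23 (SE 0.041, limma adjusted p = 0.000755). Pclo ranged from 23.3 through 25.8 to 28.1 FPKM in the arm labelled WT and from 16.3 through 21.6 to 22.7 in the trained arm. Its mean fell from 25.6 ± 1.39 to 20.9 ± 2.25 FPKM, a difference of -0.29 (SE 0.053, limma adjusted p = 0.00113). Setting the arms side by side, Unc13a had means of 55.2, 47.5 and 46.9 FPKM, and Pclo of 25.6, 23.0 and 20.9, in the order untrained WT, untrained KO, trained KO by label.

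The 250 bases before the start listed for these genes with the RefSeq promoters are shown because they are the genes with the smallest p in this comparison. They come from RefSeq on GRCm38.p6 (the same coordinates as mm10), read 5′ to 3′ on the gene's own strand. Capitals mark matches to GGGCGG (a GC box, bound by Sp1 family factors) and to TGACG (a half-site of the CREB element) on either strand, and the 2 motifs overlapped each other nowhere in these windows.
Unc13a, chr8:71671758-71672007, minus strand: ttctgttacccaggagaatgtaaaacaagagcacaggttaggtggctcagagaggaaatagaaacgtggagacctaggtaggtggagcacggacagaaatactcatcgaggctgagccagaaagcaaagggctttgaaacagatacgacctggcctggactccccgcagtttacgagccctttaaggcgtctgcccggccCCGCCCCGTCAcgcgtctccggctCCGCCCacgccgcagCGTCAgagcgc
Pclo, chr5:14514668-14514917, plus strand: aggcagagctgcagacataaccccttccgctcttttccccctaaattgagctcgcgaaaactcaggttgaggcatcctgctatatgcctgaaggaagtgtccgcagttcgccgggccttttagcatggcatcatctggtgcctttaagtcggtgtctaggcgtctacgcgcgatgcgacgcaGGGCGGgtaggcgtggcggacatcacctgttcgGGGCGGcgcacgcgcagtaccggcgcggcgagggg
The window of Unc13a held 2 matches to GGGCGG and 2 to TGACG, and that of Pclo 2 and 0. By the RefSeq gene coordinates, Unc13a begins at 71671774 on its minus strand and Pclo at 14514906. Both windows therefore reach a short way into the gene, and the last TGACG match of Unc13a lies in that stretch. GGGCGG or its reverse was in 32.7% of all 32851 such windows and in 20 of the 38 windows (52.6%) of the 28 release genes that the table covers. TGACG or its reverse was in 17.8% of all windows and in 6 of the 38 (15.8%). A match is a run of letters and no evidence that a factor binds there.

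Among the other genes that were lower, Rab3c ranged from 58.5 through 63.7 to 73.4 FPKM in the arm labelled WT and from 48.4 through 53.2 to 59.6 in the trained arm. No trained library reached the WT mean of Rab3c, and the difference was -0.26 (SE 0.053, limma adjusted p = 0.00229). Syt1 ranged from 492.2 through 510 to 527 FPKM and from 433 through 456 to 510, a difference of -0.15 (adjusted p = 0.00963 by limma). Sv2b ranged from 132 through 147 to 157 FPKM and from 111 through 127 to 154, a difference of -0.19 (adjusted p = 0.0149 by limma). In Syt1 and Sv2b the 1 trained library above the WT mean was male library 2, which also stood above the rest of its arm in Napb and Amph.

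Erc2 ranged from 30.5 through 31.8 to 33.3 FPKM in the arm labelled WT and from 24.8 through 28.3 to 34.1 in the trained arm. Its difference was -0.16 (SE 0.051, limma adjusted p = 0.0300). The highest Erc2 value of all lay in the trained arm, and the call was lost when trained male library 3, trained female library 1, 3 or 4, or female library 2 or 3 labelled WT was left out (-0.16 to -0.13, adjusted p 0.0515 to 0.0613 by limma).

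Of the genes that were higher, Syngr3 ranged from 61.4 through 72.3 to 80.5 FPKM in the arm labelled WT and from 76.9 through 85.3 to 99.7 in the trained arm. All 8 trained libraries lay above the WT mean, and the difference was 0.25 (SE 0.051, limma adjusted p = 0.00237). Cplx1 ranged from 278 through 350 to 446 FPKM and from 389 through 423 to 485, also with 8 of 8 trained libraries above the WT mean (0.31, adjusted p = 0.0156 by limma). The inhibitory marker sums of the 2 arms are given above beside Cplx1. Syt4 ranged from 61.7 through 71.9 to 77.9 FPKM and from 70.6 through 80.6 to 88.6, a difference of 0.18 (adjusted p = 0.0119 by limma).

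**Figure D4:**
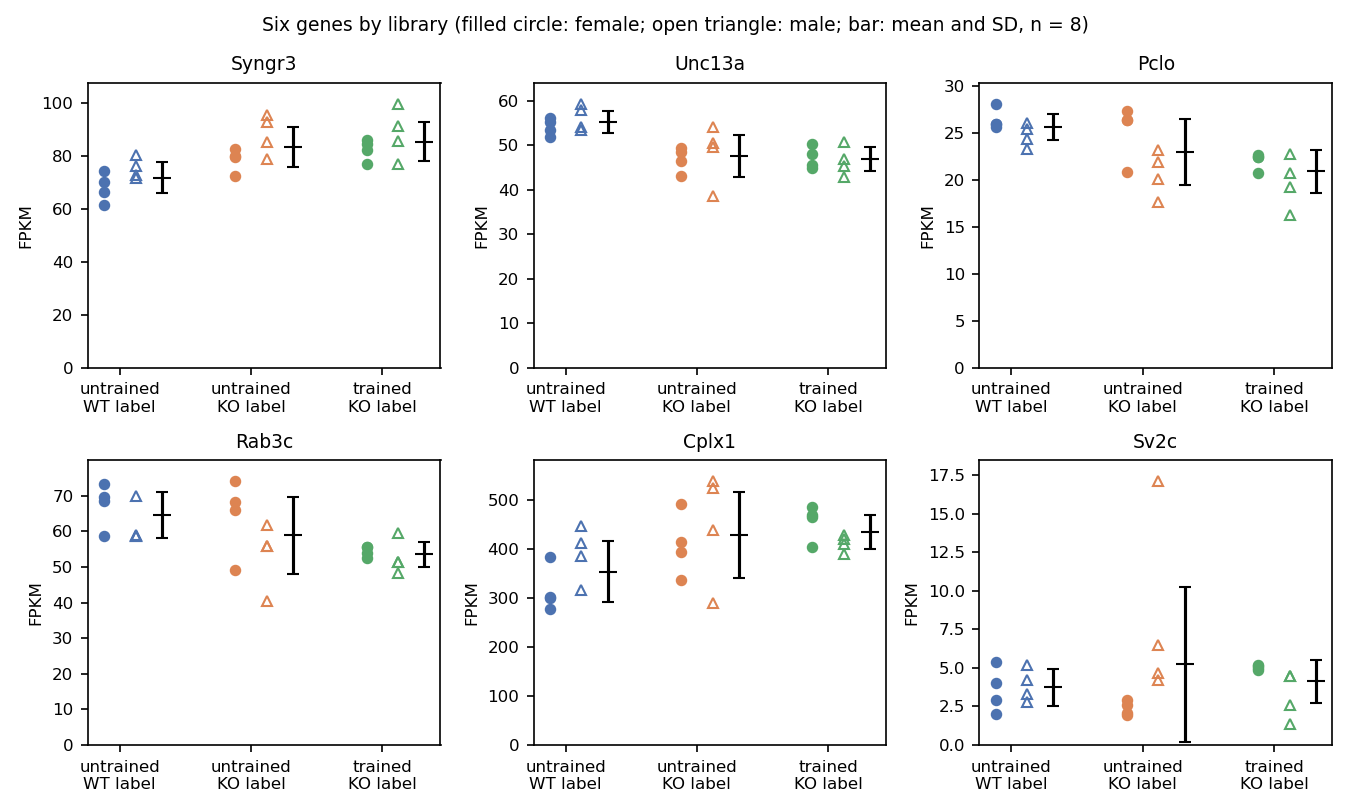
FPKM of 6 genes by arm and library: filled circles are females, open triangles males, and the bar gives the mean and SD (n = 8). Unc13a and Pclo in the trained arm lie wholly below the arm labelled WT, Syngr3 lies higher in both arms labelled KO, and the point of Sv2c at 17.1 FPKM is male untrained library 3.

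None of the 9 calls was kept when the number in the sample name was added as a covariate, where 0.175% of all genes passed. Of the arm labelled WT, 1 library has a number above 1000, against 8 of 8 in the trained arm, so this fit rests on few animals. Unc13a then differed by -0.30 (SE 0.090), Pclo by -0.21 and Syngr3 by 0.22, with limma adjusted p of 0.2496, 0.572 and 0.553. Cplx1 turned from 0.31 to -0.03 and Sv2b went from -0.19 to -0.04. Whether these numbers mark cohorts is not given in the sources used here.

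None of the 6 SNARE genes and none of the 3 endocytic genes passed limma's adjusted threshold, though 2 SNARE genes (Vamp1 and Napb) and Synj1 had an unadjusted p under 0.05. The SNARE genes Snap25, Vamp1, Vamp2, Stx1a, Nsf and Napb differed by 0.01, 0.25, 0.03, -0.12, 0.01 and -0.09, and the endocytic genes Synj1, Dnm1 and Amph by -0.09, 0.04 and 0.02. Of the 83 other genes of the vesicle cycle, 12 changed (14.5%, 8 higher and 4 lower, beside 24.5% of all genes). The 8 with the smallest p were Hspa8, Rab3ip, Sh3gl1 and Slc17a6 (the vesicular glutamate transporter VGLUT2), which were higher by 0.31, 0.17, 0.21 and 0.44, and Dnm3, Syt16, Cask (an active zone scaffold kinase) and Rab27b, which were lower with differences of -0.25, -0.23, -0.18 and -0.26.

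Males and females, 12 of each over the 3 arms, were compared with the arm as a covariate. Of the 36 genes, 10 changed (27.8%), beside 28.6% of all genes (14.8% higher and 13.8% lower), again near the background. In males 6 were higher: Cplx2, Syt5, Sv2a, Rab3a, Syngr3 and Syp. The other 4 were lower in males: Pclo, Synj1, Napb and Syt4.

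Cplx2 showed the smallest p of these. It ranged from 243 through 266.5 to 312 FPKM in females and from 282 through 309 to 355 in males, and all 12 males lay above the female mean (0.21, SE 0.045, limma adjusted p = 0.00159). Sv2a ranged from 133 through 149 to 171 FPKM in females and from 153 through 169 to 180 in males, also with 12 of 12 males above the female mean (0.14, adjusted p = 0.00657 by limma). The groups overlapped in both genes.
Syt5 went from a mean of 87.3 ± 6.39 FPKM in females to 103 ± 11.9 in males (SD, n = 12 each; 0.23, limma adjusted p = 0.00446). Rab3a went from 354 ± 30.3 to 405 ± 43.5 FPKM (0.19, limma adjusted p = 0.00893). Syngr3 went from 76.5 ± 7.62 to 84.0 ± 9.25 FPKM (0.13, limma adjusted p = 0.0212). Syp, which lies on the X chromosome (chrX:7638580-7653256, mm10), went from 523 ± 22.4 to 567 ± 49.98 FPKM (0.11, limma adjusted p = 0.0488). Syn1, the other release gene on that chromosome, differed by 0.01 and was not called.
Of the genes lower in males, Pclo went from 24.6 ± 2.58 FPKM in females to 21.8 ± 3.04 in males (-0.17, limma adjusted p = 0.0159). Synj1 went from 83.0 ± 4.68 to 77.3 ± 5.26 FPKM (-0.10, limma adjusted p = 0.0322). Napb went from 205 ± 18.7 to 185 ± 17.1 FPKM (-0.15, limma adjusted p = 0.0389) and Syt4 from 78.2 ± 6.39 to 71.3 ± 8.82 (-0.14, limma adjusted p = 0.0485).

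Among the called genes, the sex differences went with base composition. Of the 6 genes that were higher in males, 5 had a transcript GC content between 53.7% and 57.0%, Syp being the exception at 45.4%. The 4 that were lower had one between 40.7% and 46.9%. Other GC-rich members were not called. Bsn (59.8%), Syn1 (57.9%), Rph3a (55.9%) and Unc13a (55.1%) differed by -0.01, 0.01, -0.01 and 0.02. Stx1a (57.9%), Dnm1 (57.4%), Syngr1 (56.8%) and Cplx1 (56.0%) differed by 0.06, 0.08, 0.10 and 0.09. After each library was corrected for GC content and length, 2 of the 36 genes changed, Syp (0.15) and Cplx2 (0.14), beside 4.97% of all genes. The call of Syp without that correction was lost in 20 of 24 fits with 1 library left out. With the correction, Syngr3 turned to -0.01 and Syt4 to 0.01. Cplx2 was called in all 33 alternative settings tried, of which 24 left out 1 library. Without male untrained library 3 labelled KO, 12 genes were called. Syt4 was no longer among them, and Syngr1 (0.14), Stx1a (0.21) and Dnm1 (0.14) were added. The share of all genes in that fit is not given here. Over the 24 fits with 1 library left out, 6 to 12 of the 36 genes and 2986 to 4233 of the 12572 genes tested passed.

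**Figure D5:**
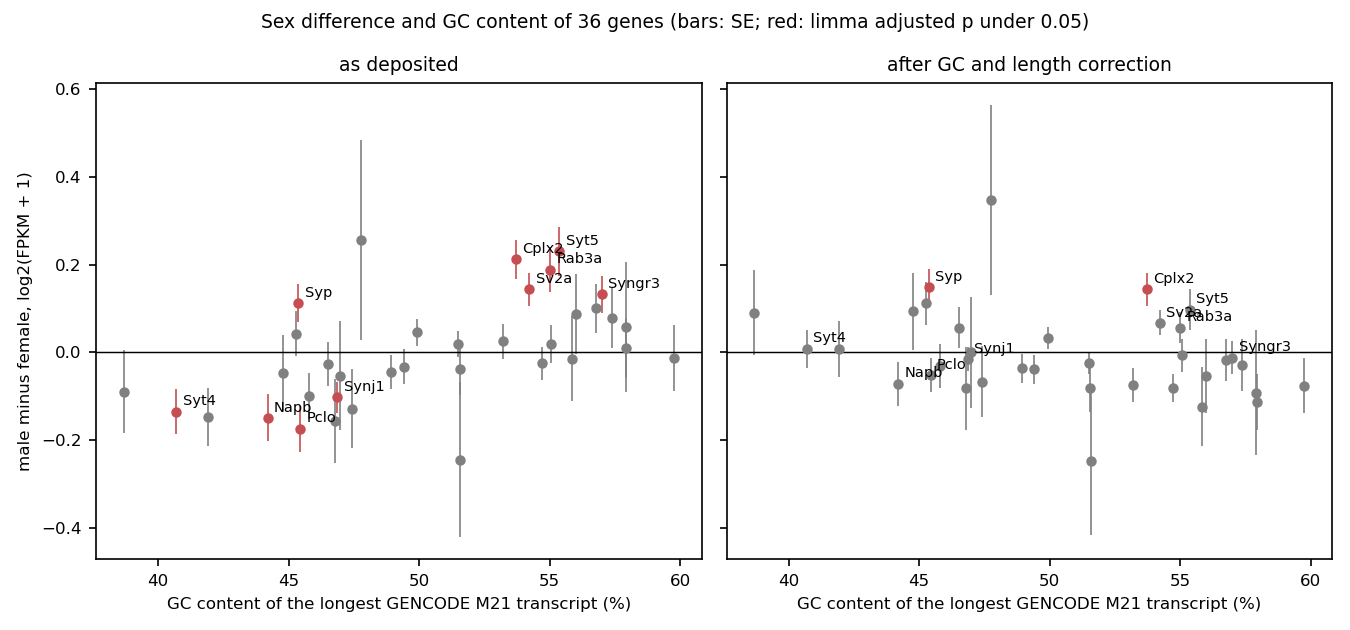
Male minus female difference in log2(FPKM + 1), with its SE, against the GC content of the longest transcript, for the 36 genes as deposited and after correction for GC content and length; red marks a limma adjusted p under 0.05. Before correction the genes higher in males lie mostly at the right and those lower at the left, and after it Syp and Cplx2 are the 2 red points.

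Neither the genotype difference nor the training difference was shown to differ between the sexes for any of the 36 genes. With genotype label by sex, 0 members and 0 of all genes passed limma's test of the interaction (5 members, and 394 of 12572 genes or 3.13%, had an unadjusted p under 0.05). With training by sex, 0 members and 1 gene (0.00795%) passed, and 10 members had an unadjusted p under 0.05 beside 15.5% of all genes. The smallest p among the members was that of Sv2c, with an interaction of -1.83 (SE 0.45, limma adjusted p = 0.0901).
Sv2c showed opposite orders in the sexes. In females it was at 1.96 to 2.93 FPKM in the untrained and at 4.90 to 5.19 in the trained arm labelled KO, with 4 libraries each. In males it was at 4.19 to 17.1 FPKM in the untrained and at 1.39 to 4.51 in the trained arm, and the untrained arm labelled WT spanned 1.99 to 5.38 over both sexes. Without male untrained library 3 labelled KO the interaction was -1.44 (SE 0.30) and passed the test, as the only one of the 36 genes, beside 1.54% of all genes. The 8 striatal markers summed to between 65.3 and 255 FPKM in the other 7 untrained and between 61.4 and 182 in the trained libraries labelled KO, and their part in the Sv2c values was not tested.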

How the data were processed

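Libraries were made with a stranded poly(A) kit, per the labels' protocols. Per the submitters' processing notes, the tools included FastQC 0.11.7, Trimmomatic 0.38, STAR 2.5.3a and featureCounts (Subread 1.6.3), with the mm10 build; their settings are not given in the sources used here. The authors deposited 1 table of FPKM values, which adjusts for transcript length and depth and leaves base composition as it was. Reads were recovered from the FPKM steps: 99.97% of values came out whole within 0.01 read (22 abundant genes within 0.15). Precision of these counts is limited by counting error and by 8 animals per arm.

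Values were tested as log2(FPKM + 1), a scale that understates the change of low genes, with limma 3.58.1 (R 4.3.3, eBayes with trend) over the 12572 genes with a mean of at least 1 FPKM, with sex as a covariate and Benjamini-Hochberg adjustment over all of them at 0.05. On simulated data the same script recovered 198 of 200 changes of 2-fold, with 10 other calls, in the untrained genotype comparison. The differences of the 36 genes in that comparison were smaller, from -0.31 to 0.30, and recovery at such sizes was not simulated. Alternatives covered the pseudocount, filter, scaling, covariates, GC content and length, replicate numbers, limma-voom on recovered reads, and each library left out. Promoters came from RefSeq on GRCm38.p6, GC contents from GENCODE M21.

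The 36 genes and all lists were chosen with earlier results of these data known. All 36 are named, by role; genes past the threshold in a comparison, or the 3 with the smallest p where none passed, are given by lowest, median and highest value per arm, except that most genes called between the sexes are given by mean and SD. The labels do not pair animals across arms, and whether libraries of an arm came from separate litters is not stated. A gene of the cortical excitatory marker list is not reported here and was left out of its sums.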

Additional observations from a re-analysis of the deposited data

Results flagged for a closer look

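Each gene's 8 values in each arm were checked for a single library far from the others by Dixon's ratio. Of 108 such checks, 13 stood out, where chance gives about 1 in 20, or 5.4. In male untrained library 3 labelled KO 8 did: Snap25 at 941.4 FPKM (next lowest 1680), Dnm1 at 237.1 (346), Syn1 at 121.9 (187), Rph3a at 73.9 (160), Stx1a at 50.2 (151), Syt7 at 47.9 (56.1) and Rims1 at 25.8 (43.9) were low, and Sv2c at 17.1 (next highest 6.48) was high. Trained male library 2 labelled KO was high in 4: Syt1 at 509.5 FPKM (next highest 469), Napb at 208.1 (190.5), Sv2b at 153.9 (129.9) and Amph at 91.7 (86.8). Vamp1 was high at 77.6 FPKM in male library 1 labelled WT (next highest 56.2).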

How the results depend on the processing

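With replicate numbers as a block (pairing by number), 1 of 36 genes passed between untrained arms (Unc13a, with Syngr3 at an adjusted p of 0.0696), 0 with training and 6 between trained KO and WT labels; same-numbered libraries did not deviate together (mean r of 0.02, -0.07 and -0.10 over 8, 7 and 7 pairs). Between untrained arms, 2 genes passed with equal sums per library, with all 24 libraries in one fit and with GC and length correction. Without sex as a covariate 0 passed. Leaving out 1 library gave 0 to 3, beside 115 to 340 of all genes. With training, each library left out gave 0, beside 330 to 945 of all genes. Between trained KO and untrained WT labels, 5 passed with all 24 libraries in one fit and 0 with the sample number as a covariate (Cplx1 at -0.030). Leaving out 1 library there gave 8 to 11, beside 2363 to 3418 of all genes. Leaving out 1 library between sexes gave 6 to 12, beside 2986 to 4233 of all genes. Between sexes, 5 passed without arm as a covariate and 2 with GC and length correction. With that correction and no male untrained library 3 labelled KO (added after the data were seen), 3 passed. Under these 2 corrections Syngr3 was at -0.012 and -0.031 and Syt4 at 0.0087 and 0.026. For the interactions, 1 library left out gave 0 to 0 with genotype label and 0 to 1 with training, beside 0 to 0 and 0 to 194 of all genes. Shares of all genes are not given for the other settings, except the sample-number fits and the GC and length correction between the sexes. Counts under those other settings therefore cannot be set against the background. The cause of these shifts was not tested. Over all alternatives, the called differences kept direction and call 490 times, kept direction and lost the call 105 times, and reversed 5 times. For each difference between arms, 16 of the 27 alternatives left out 1 library, and between the sexes 24 of 33. Such fits share nearly all their libraries, so these totals do not measure how well the calls hold under other processing. The calls of Syp, Syt4, Napb and Synj1 between the sexes were lost in 20, 14, 10 and 5 of 24 fits with 1 library left out. Depth limits Sv2c most, at 110 to 2093 reads per library.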
